A study of Homo sapiens with 9 samples.

Results

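The interleukin-1 (IL-1) family was followed in HT-29 colon cancer cells through 10 genes: the ligands IL1A, IL1B, IL18 and IL33, the receptor antagonist IL1RN, and the receptors IL1R1, IL1R2, IL1RAP, IL1RL1 and IL18R1. The 10 were chosen by name, as the best known ligands and receptors of the family, out of 23284 gene symbols. The choice was made with earlier results of these data known, and IL1R1 is among the genes the paper checked by qRT-PCR. Each member stood on a single entry in every library. At 5 µM 5-Aza the transcripts of both IL-1 agonists, of the signalling receptor IL1R1 and of the decoy receptor IL1R2 were higher than in the control. At 10 µM IL1A and IL1B were still higher than in the control, and no member was called different from 5 µM.

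IL-1 alpha and IL-1 beta are released by stressed or inflamed cells and bind the receptor IL1R1, which then recruits the accessory protein IL1RAP and signals through MYD88 and IRAK kinases to NF-kB. The antagonist made from IL1RN occupies IL1R1 without signalling, and IL1R2 binds ligand but lacks the signalling domain. IL-18 and IL-33 use the related receptors IL18R1 and IL1RL1 (also called ST2), and in the intestine epithelial cells are known as a source of IL-18 and of the antagonist.

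HT-29 is an established human line from a colon adenocarcinoma, grown here as monolayers. Its cells received the vehicle DMSO alone (0 µM, the control), 5 µM 5-Aza or 10 µM 5-Aza for 5 days, and 5-Aza (5-aza-deoxycytidine) is a cytidine analog that blocks the maintenance of DNA methylation. Each of the 3 groups held 3 cultures, so the 9 libraries come from a single cell line and all of them share the vehicle. Paired-end RNA-Seq libraries were deposited as FPKM, by definition fragments counted per kilobase of transcript and scaled to the size of the library.

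An FPKM in these files is a relative value, since those of a library summed to between 3.69e+09 and 5.91e+09. Low values stepped in whole fragments, which gave the fragments behind 1 unit of FPKM in each library, relative to control replicate 1. This term was 1.51 and 2.14 for the other control libraries, 2.29 to 2.57 at 5 µM and 1.27 to 2.01 at 10 µM. It was highest in the 5 µM libraries. How the term relates to sequencing depth is uncertain, since the scaling behind these FPKM is not stated. Being above 0 tells little of cell type, since 7 of 10 leukocyte markers were so in all 3 libraries at 5 µM. The 10 epithelial markers were above 0 in every library and had a far higher summed level than the leukocyte markers. Their summed FPKM was 8.29e+07 to 9.93e+07 in the control, 3.52e+07 to 3.99e+07 at 5 µM and 2.75e+07 to 4.83e+07 at 10 µM. Most of this sum came from the keratins KRT8 and KRT18, called lower at 5 µM (log2 differences -1.65 and -1.64), as 2.17% of all genes were. CDX1 and CEACAM5 were called higher (2.14 and 1.59), CDX1 losing its call with all 9 samples in 1 fit. CDX2 (-0.73), KRT20 (-0.46), LGALS4 (-0.87) and VIL1 (-0.47) passed the adjusted p as lower but not 2-fold. CDH1 and EPCAM differed by -0.06 and -0.23, and the median of the 10 was -0.47. At 10 µM CDX2 and KRT20 were called lower than the control (-1.38 and -1.31), as 3.40% of all genes were. CDX2 lost that call without control replicate 2 (limma adjusted p = 0.0505). KRT20 lost it without any of the control libraries, and without 10 µM replicate 1 or 3 (0.0731 to 0.135). Of the 10 leukocyte markers 3 were listed at 0 in all control libraries (CD163, CD3E, KIT), 1 at 5 µM (MS4A1) and 2 at 10 µM (CD163, MS4A1). Their summed FPKM was 38443 to 51633, 49557 to 65192 and 47133 to 56136. Most of this sum was CD14, at 36125 to 48157 FPKM in the control, above the epithelial marker CDX1 (3424 to 4352). CD3E, FCGR1A and ITGAM of the leukocyte markers were called higher at 5 µM and ITGAM at 10 µM relative to the control, against 14.1% and 4.07% of all genes. CD3E rested on 3, 3 and 4 fragments at 5 µM, FCGR1A lost its call without any of the 5 µM libraries (adjusted p 0.075 to 0.11), and ITGAM at 10 µM without any library but control replicate 1 (0.056 to 0.132). Of the 7 markers of fibroblasts and endothelium 5 were called higher at 5 µM, against 14.1% of all genes. CDH5 of these rested on 5, 2 and 2 fragments at 5 µM and lost its call with a pseudocount of 1000 (0.31). PDGFRB and PECAM1 lost their calls without any of the 5 µM libraries (adjusted p 0.0758 to 0.115). PDGFRB lost its call also without control replicate 1 or 2 (0.08 and 0.0889), and PECAM1 without control replicate 3 (0.0509). The list summed to 7733 to 12672, 42613 to 56355 and 22222 to 28894 FPKM, most of it at 5 µM from COL1A1 (30991 to 44478), while DCN was listed at 0 in all 5 µM libraries. The last of these sums was ordered over the groups as IL1A, IL1B and IL1R1 were. The cultures were all of the HT-29 line, so a marker's name does not mean that such cells were present. The source of the marker transcripts was not tested.

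Members on 3 other chromosomes aside, 7 of the 10 lie on chromosome 2 of GRCh37, the assembly the authors call hg19. The receptors IL1R2 (chr2:102608422-102645006), IL1R1 (chr2:102681004-102796334), IL1RL1 (chr2:102927962-102968497) and IL18R1 (chr2:102927989-103015237) follow each other on the plus strand. IL1A (chr2:113531502-113542070) and IL1B (chr2:113587328-113594393) lie on the minus strand and IL1RN (chr2:113856892-113891593) on the plus strand. IL18 lies on the minus strand of chromosome 11 (chr11:112013976-112034819), IL33 on the plus strand of chromosome 9 (chr9:6215786-6257983) and IL1RAP on the plus strand of chromosome 3 (chr3:190231840-190377539). The annotated spans of IL1RL1 and IL18R1 overlap on the same strand, and which of the pair a fragment there belongs to is uncertain.

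5-Aza acts at cytosines followed by guanine (CpG), so the CpG content of the start regions was read from RefSeq (GRCh38.p14). A window spans 250 bases before to 50 bases after a gene's start. Such windows matched 9 of the 10 members, IL18 having none, with 19 windows in all. The CpG-richest window of each of the 4 members called at 5 µM is shown, 5′ to 3′ on the gene's strand, with CpG in capitals. They are chr2:112784444-112784743 (minus) for IL1A, chr2:112836730-112837029 (minus) for IL1B, chr2:102142496-102142795 (plus) for IL1R1 and chr2:101991710-101992009 (plus) for IL1R2.
IL1A: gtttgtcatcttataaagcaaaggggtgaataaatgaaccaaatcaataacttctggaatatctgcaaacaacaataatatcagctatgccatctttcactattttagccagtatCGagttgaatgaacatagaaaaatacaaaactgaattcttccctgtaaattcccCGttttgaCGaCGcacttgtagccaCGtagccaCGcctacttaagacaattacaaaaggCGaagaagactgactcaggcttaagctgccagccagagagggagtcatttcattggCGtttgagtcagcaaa
IL1B: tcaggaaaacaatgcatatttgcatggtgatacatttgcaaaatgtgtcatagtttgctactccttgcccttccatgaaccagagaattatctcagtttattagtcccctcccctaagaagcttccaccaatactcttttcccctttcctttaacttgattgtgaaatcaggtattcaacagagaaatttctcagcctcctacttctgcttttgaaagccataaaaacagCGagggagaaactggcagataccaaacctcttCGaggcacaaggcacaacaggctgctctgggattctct
IL1R1: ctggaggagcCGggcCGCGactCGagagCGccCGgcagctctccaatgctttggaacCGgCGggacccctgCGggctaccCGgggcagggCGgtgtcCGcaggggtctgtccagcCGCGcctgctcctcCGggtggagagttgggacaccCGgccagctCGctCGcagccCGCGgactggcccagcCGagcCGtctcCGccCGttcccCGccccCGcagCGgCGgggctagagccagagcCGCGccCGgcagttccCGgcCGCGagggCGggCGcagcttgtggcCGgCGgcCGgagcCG
IL1R2: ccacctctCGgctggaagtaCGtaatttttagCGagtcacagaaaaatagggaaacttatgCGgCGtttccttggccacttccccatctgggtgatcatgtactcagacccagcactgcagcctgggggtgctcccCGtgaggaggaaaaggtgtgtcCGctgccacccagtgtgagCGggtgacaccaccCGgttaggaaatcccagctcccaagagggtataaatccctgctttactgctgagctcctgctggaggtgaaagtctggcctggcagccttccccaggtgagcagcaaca

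The 4 windows span a wide range of CpG content. The IL1R1 window holds 40 CpG, a number that 7.61% of all 35116 windows reach, against 8 for IL1A, 2 for IL1B and 9 for IL1R2, all below the median of 14. It is the richest of 4 windows of IL1R1, and the others hold 7, 4 and 8 CpG, also below the median, whereas the share over all windows counts each window singly. IL1RAP, which was not called, has a window with 36 CpG. IL1RAP, IL1R1 and IL18R1 were the 3 members with a window above the median. The letters TGACTCA, the site of AP-1 factors read on both strands, occur 2 times in the IL1A window and in 4.95% of all windows. The NF-kB consensus occurs 1 time in the IL1R2 window and in 11.3% of all windows. A match of letters is not a measured site, and methylation was not measured in these libraries.

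Of the 10 members 4 were called higher at 5 µM than in the control and none lower, where 14.1% of the 20051 genes tested were called higher and 2.17% lower (16.2% in either direction). A call means a limma adjusted p of at most 0.05 (Benjamini-Hochberg over all genes tested) and a change of over 2-fold on the log2(FPKM + 1) scale. The members' median log2 difference was 0.88, and that of all genes tested was 0.14. Among the 15418 genes above 0 in all 6 libraries the median was -0.04. The members were not chosen blind to these data, so these comparisons with all genes are descriptions. In 7 members the 3 treated libraries all lay above the 3 control libraries, as in 29.4% of all genes, and the groups of the other 3 (IL18, IL33, IL18R1) overlapped. With 3 libraries against 3, the smallest 2-sided p of an exact permutation test is 0.1, which each of the 7 reached. The 4 called were also the members that passed the adjusted p at any fold, as 39.0% of all genes did.

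**Figure D1:**
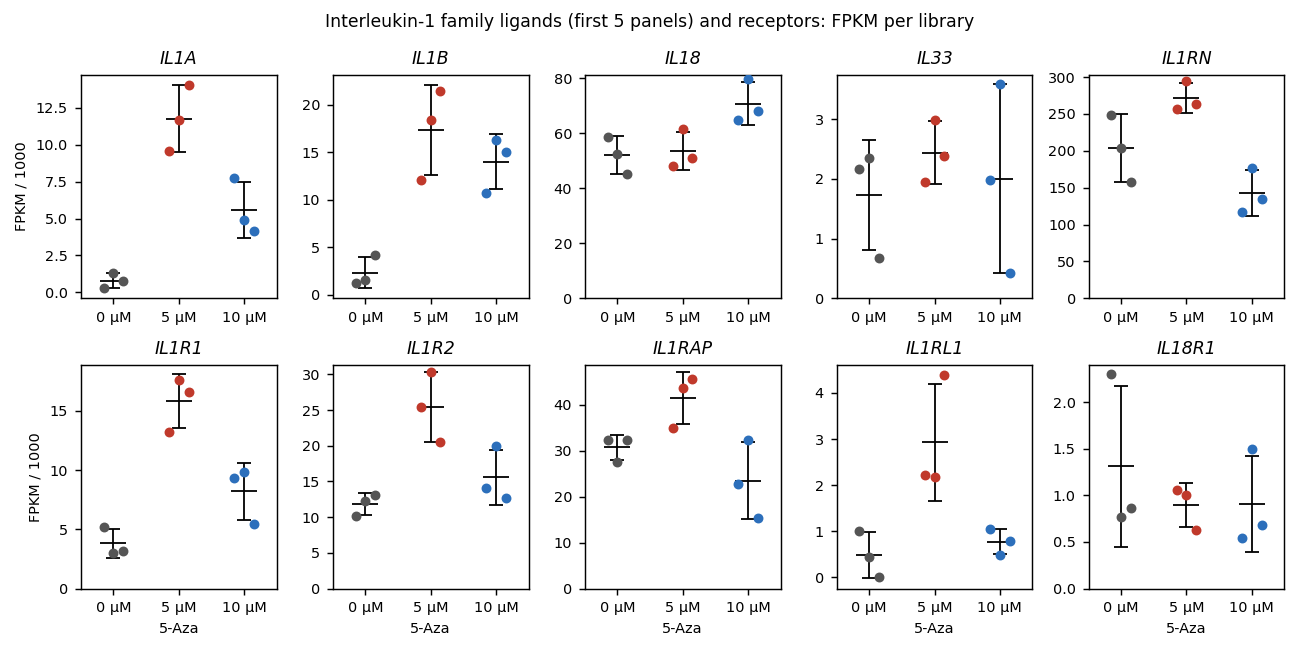
FPKM divided by 1000 of the 10 members in each of the 9 libraries at 0, 5 and 10 µM 5-Aza, with linear axes that differ between panels. Points are libraries, and the horizontal mark and bars are the mean and SD of 3. IL18 has its highest group mean at 10 µM, IL18R1 in the control and every other member at 5 µM.

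**Figure D2:**
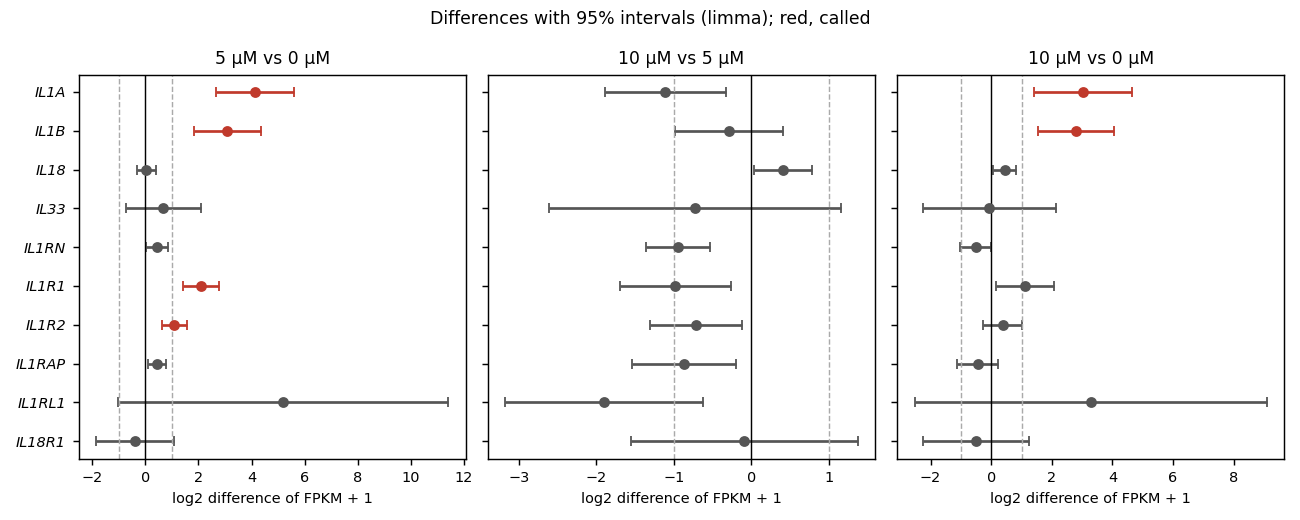
Difference of log2(FPKM + 1) with its 95% interval from limma for each member in the 3 comparisons (the axes differ), with broken lines at a 2-fold change and called members in red. The 4 called members of 5 µM vs. 0 µM and the 2 of 10 µM vs. 0 µM lie to the right, and none is red in 10 µM vs. 5 µM.

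IL1A, the alarmin that is active as a precursor, was at 281, 1302 and 789 FPKM in the 3 control libraries. It was at 9572, 11670 and 14076 FPKM at 5 µM and at 7733, 4894 and 4126 FPKM at 10 µM. The 3 groups were separate from each other. The mean rose from 791 ± 511 (SD, n = 3) to 11773 ± 2254, a ratio of 14.9 and a log2 difference of 4.13 (SE 0.60, limma adjusted p = 0.00279). The control level was low: IL1A stood at percentile 13.8 among the genes above 0 in the control, at 35.3 at 5 µM and at 27.0 at 10 µM.

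IL1B, whose precursor is cut by caspase-1 before it acts, was at 1187, 1572 and 4169 FPKM in the control. It reached 12089, 18434 and 21447 FPKM at 5 µM, and 10740, 16252 and 14997 FPKM at 10 µM. Both treated groups lay above the control and overlapped with each other. From the control mean of 2309 ± 1622 (SD, n = 3) to 17323 ± 4777 at 5 µM the ratio was 7.50 and the log2 difference 3.09 (SE 0.52, limma adjusted p = 0.00502). The FPKM of IL1B over that of IL1A in the same library overlapped between all groups.

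IL1R1, the receptor through which both agonists signal, was at 5197, 3012 and 3194 FPKM in the control. At 5 µM it was at 13232, 17620 and 16597 FPKM, and at 10 µM at 9328, 9865 and 5440 FPKM. All 5 µM libraries were above all 10 µM libraries, and these above all controls. The rise at 5 µM was 4.16 times in the means (3801 ± 1212 to 15816 ± 2295, SD, n = 3) and 2.09 on the log2 scale (SE 0.29, limma adjusted p = 0.00218).

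IL1R2, the decoy, was at 10211, 12257 and 13150 FPKM in the control, at 25469, 30351 and 20583 FPKM at 5 µM and at 14060, 19932 and 12752 FPKM at 10 µM. The 5 µM libraries were above all others, and those of the other groups overlapped. The 5 µM mean was 25468 ± 4884 against 11873 ± 1507 (SD, n = 3), a log2 difference of 1.09 (SE 0.20, limma adjusted p = 0.00645). This lay near the 2-fold limit. The log2 difference was 0.99 without control replicate 1 and 0.96 without 5 µM replicate 2, and the call was lost in both cases.

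The remaining members were not called at 5 µM. IL1RN, the antagonist, had the highest FPKM of the 10, at 249072, 204118 and 157082 in the control, 256656, 294221 and 263004 at 5 µM and 116617, 176776 and 134118 at 10 µM. At 5 µM all its libraries were above the control, with a log2 difference of 0.44 (SE 0.17, limma adjusted p = 0.086). IL1RAP, the shared co-receptor, was at 32240, 27610 and 32195 FPKM in the control and at 34882, 43658 and 45561 FPKM at 5 µM, again without overlap and with a log2 difference of 0.43 (SE 0.14, limma adjusted p = 0.056). With median-of-ratios scaling of the libraries these adjusted p-values were 0.0411 and 0.0308, both differences staying under 2-fold.

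IL1RL1, the receptor for IL-33, was at 997 and 440 FPKM in control replicates 1 and 2 and listed at 0 in replicate 3. It was at 2211, 2181 and 4391 FPKM at 5 µM and at 1046, 496 and 781 FPKM at 10 µM. All 5 µM libraries were above the other groups. The log2 difference at 5 µM was 5.18 with a 95% interval from -1.05 to 11.42 (limma adjusted p = 0.153), so the gene was not called. The value at 0 set this width: without control replicate 3 the difference was 2.06 (adjusted p = 0.0418), and with a pseudocount of 1000 it was 1.42 (adjusted p = 0.011).

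IL18, IL33 and IL18R1 overlapped between 5 µM and the control. IL18, a cytokine that gut epithelium makes also at rest, was at 58737, 52599 and 45130 FPKM in the control and at 48208, 61450 and 51092 at 5 µM, with a log2 difference of 0.04 (SE 0.14, limma adjusted p = 0.839). IL33, a nuclear alarmin, ranged from 675 to 2347 FPKM in the control and from 1948 to 2994 at 5 µM (log2 difference 0.67, SE 0.58). IL18R1, the ligand-binding chain for IL-18, ranged from 763 to 2305 FPKM and from 627 to 1054 FPKM (log2 difference -0.40, SE 0.60). The 95% intervals of both held a 2-fold rise, and that of IL18R1 also a 2-fold fall.

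For 5 members the FPKM values came out as whole fragments within a tolerance of 0.01, the smallest whole numbers that fit. IL1A rested on 1, 7 and 6 fragments in the control libraries, on 82, 95 and 129 at 5 µM and on 35, 35 and 25 at 10 µM. IL1B rested on 2, 4 and 15, then 49, 71 and 93, then 23, 55 and 43 fragments. The control levels of both agonists are thus known only to a wide counting error, the exact Poisson 95% interval for the 1 fragment of IL1A running from 0.0253 to 5.57. IL1R1 was better covered, with 102 fragments summed over the control libraries, 707 at 5 µM and 252 at 10 µM. IL1RL1 had 5, 65 and 11 fragments in sum and IL18R1 had 23, 28 and 21, so both rested on few fragments in the control and at 10 µM. These intervals cover counting error only.

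**Figure D3:**
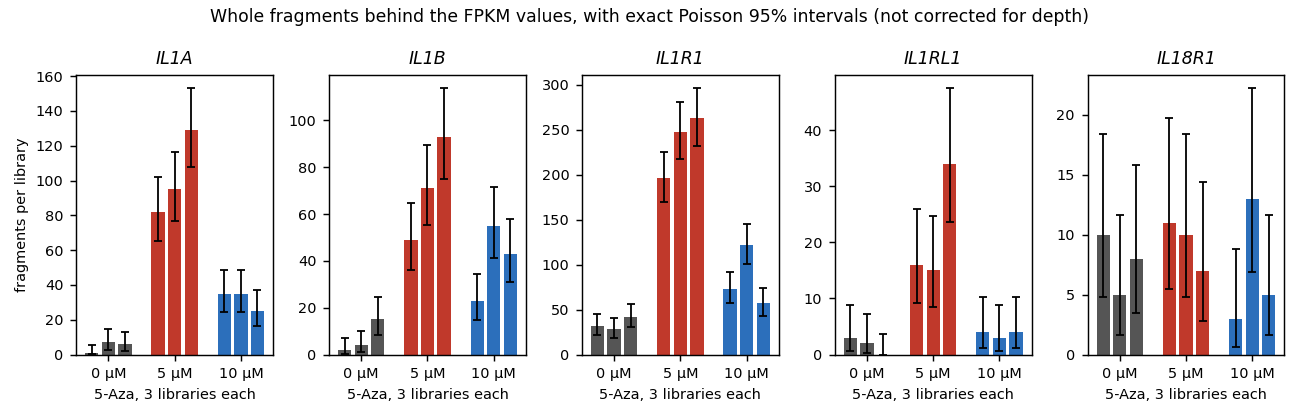
Whole fragments behind the FPKM of 5 members in each library (bars, with exact Poisson 95% intervals), not corrected for depth, at 0, 5 and 10 µM 5-Aza from left to right. IL1A has 1 to 7 fragments in the control libraries and 82 to 129 at 5 µM, while IL18R1 has 3 to 13 in all libraries.

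Between 5 µM and 10 µM no member was called in either direction by limma, where 0.129% of 20085 genes were called higher and 4.82% lower. At an unadjusted p under 0.05 the count was 1 higher (IL18) and 6 lower (IL1A, IL1R1, IL1R2, IL1RAP, IL1RL1, IL1RN). The same 7 members had groups that did not overlap, against a background of 4.37% higher and 25.3% lower. The members' median log2 difference was -0.80, and that of all genes tested was -0.31. IL1RN passed the adjusted p but not the 2-fold limit (log2 difference -0.95, SE 0.17, limma adjusted p = 0.0237), as 6.17% of all genes passed the adjusted p. Without 10 µM replicate 2 it was called, at -1.11 (adjusted p = 0.00599), together with IL1R1 and IL1RAP. Without any of the 3 libraries at 5 µM, or without 10 µM replicate 3, its adjusted p was between 0.066 and 0.12. IL1RL1 had the largest difference, -1.90 (SE 0.54, limma adjusted p = 0.0923), and was called with a pseudocount of 1000 (-1.11, adjusted p = 0.0435). The differences were -1.11 for IL1A (SE 0.33), -0.98 for IL1R1 (SE 0.30), -0.87 for IL1RAP (SE 0.29) and -0.72 for IL1R2 (SE 0.25). The adjusted p of IL1A, IL1R1, IL1RAP and IL1R2 lay above 0.1, and IL1B differed least of the agonists, by -0.29 (SE 0.29).

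Between 10 µM and the control 2 members were called higher, IL1A and IL1B, and none lower, against 4.07% and 3.40% of 18928 genes (7.48% in either direction). In 4 members (IL1A, IL1B, IL18, IL1R1) the 10 µM libraries all lay above the control, as in 14.4% of all genes, and in none did they all lie below it, against 26.7% of all genes. The members' median log2 difference was 0.41, and that of all genes tested was -0.15. IL1A was 7.06 times the control in the means (log2 difference 3.02, SE 0.69, limma adjusted p = 0.0307). IL1B was 6.06 times the control (log2 difference 2.80, SE 0.53, limma adjusted p = 0.0194). Both calls were lost when certain libraries were left out. That of IL1A was lost without control replicate 1 or 3 or 10 µM replicate 1 or 3 (adjusted p 0.0558, 0.0626, 0.0993 and 0.0824), and that of IL1B without control replicate 2 or 10 µM replicate 1 or 3 (0.0687, 0.057 and 0.0748). The levels of IL1RAP at 10 µM (22802, 32253 and 15414 FPKM), of IL33 (424 to 3590 FPKM) and of IL18R1 (544 to 1492 FPKM) overlapped those of the control. IL1R1 was 2.16 times the control but missed the adjusted p (log2 difference 1.11, SE 0.41, adjusted p = 0.103), which was 0.0398 with all 9 samples in 1 fit, where it was called.

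IL18 was the one member with its highest levels at 10 µM, at 64899, 79698 and 68065 FPKM. All these libraries were above those of the other groups, by 0.41 on the log2 scale from 5 µM (SE 0.16, limma adjusted p = 0.174) and by 0.45 from the control (SE 0.16, adjusted p = 0.099). Median-of-ratios scaling moved the median of all genes up by 0.20 in the first and by 0.24 in the second of these comparisons, and by 0.04 in 5 µM vs. 0 µM. On that scale IL18 differed by 0.61 (adjusted p = 0.0267) and 0.69 (adjusted p = 0.0111), still under 2-fold. IL1A and IL1B stayed called against the control on it, at 3.27 and 3.04. IL1R1 reached 1.35 (adjusted p = 0.0514).

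Ratios within a library do not depend on its scaling. The FPKM of the antagonist IL1RN over the sum of IL1A and IL1B was 170, 71.0 and 31.7 in the control, 11.8, 9.77 and 7.40 at 5 µM and 6.31, 8.36 and 7.01 at 10 µM. Antagonist transcript exceeded agonist transcript in every library, by less in each treated library than in any control (exact permutation p = 0.1 for both, the smallest possible, and 0.24 after adjustment over 12 ratio tests). IL1R1 over its co-receptor IL1RAP was 0.161, 0.109 and 0.0992 in the control, 0.379, 0.404 and 0.364 at 5 µM and 0.409, 0.306 and 0.353 at 10 µM. Both treated groups were above the control and overlapped with each other. IL1R1 over the decoy IL1R2 was 0.509, 0.246 and 0.243 in the control and 0.520, 0.581 and 0.806 at 5 µM, separate by a narrow margin. At 10 µM this ratio was 0.663, 0.495 and 0.427 and overlapped the control.

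**Figure D4:**
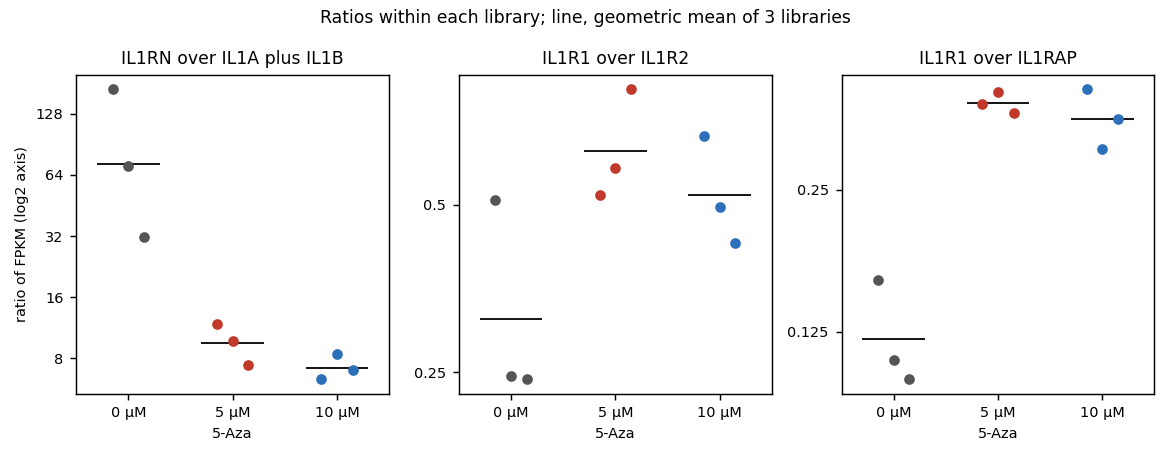
Ratios of FPKM within each library on log2 axes for the antagonist over both agonists, the signalling receptor over the decoy, and the signalling receptor over the co-receptor, at 0, 5 and 10 µM 5-Aza. Points are libraries and lines geometric means of 3. The first ratio lies between 31.7 and 170 in the control and between 6.31 and 11.8 in the treated libraries.

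The levels of the 10 members followed no single order over the groups. By group means of FPKM, which is per length, IL1RN led throughout, followed by IL18 and IL1RAP, and IL18R1, IL33 and IL1RL1 were the 3 lowest in both treated groups. In the control IL1A and IL1RL1 were the 2 members with the lowest means, and their libraries overlapped. IL1RL1, listed at 0 in a library, was left out of the comparison of patterns over the 9 libraries. Of the other members those most like IL1R1 were IL1R2 (Pearson r = 0.843) and IL1A (r = 0.827), while IL18R1 had r = -0.0614. Among 15277 genes TTC7B (r = 0.993), PPP4R1L (r = 0.991) and KIF24 (r = 0.985) were closest to IL1R1. These correlations are descriptions over 9 libraries that share 3 treatment levels.

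Among 12 other genes of the family, 3 were called higher at 5 µM (14.1% of all genes were) and, by limma, none in the other comparisons (5 at an unadjusted p under 0.05 for 10 µM vs. 5 µM, 0 of 10 tested for 10 µM vs. 0 µM). All 3 were listed at 0 in every control library. IL36G, an agonist of the skin and mucosa, had 4, 6 and 1 fragments at 5 µM. IL1RAPL1, a receptor-like protein of neurons, had 5, 10 and 8 and lost its call with a pseudocount of 1000 (0.97), and IL1F10 had an estimated 6.23, 5.56 and 8.9. None of the 3 was above 2 fragments at 10 µM. IL1RL2, the receptor for the IL-36 cytokines, differed by -0.11 at 5 µM vs. 0 µM, by 0.16 at 10 µM vs. 5 µM and by 0.06 at 10 µM vs. 0 µM on the log2 scale, with groups that overlapped.

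Of 17 genes for maturation and release of the cytokines, NLRP3 and CARD16 were called higher at 5 µM and none lower, a share below the 14.1% of all genes called higher. NLRP3, the inflammasome sensor, rose by 2.02 on the log2 scale (SE 0.46, limma adjusted p = 0.0154) on an estimated 3.06 to 8.16 fragments in the control libraries and 29.6 to 32.9 at 5 µM. CARD16, an inhibitor of caspase-1, had at most 2.45 estimated fragments in a library and lost its call with a pseudocount of 1000 (0.75). CASP1 itself, the enzyme that cuts the IL-1 beta precursor, was listed at 0 in control replicate 1 and at 936 and 1757 FPKM in the other control libraries. It was at 6974, 4793 and 5140 FPKM at 5 µM and at 2912, 9659 and 11403 FPKM at 10 µM, all above the control. It was not called, its 95% interval at 5 µM running from -1.20 to 12.32 (limma adjusted p = 0.157, and 0.159 for 10 µM vs. 0 µM). At 10 µM CAPN2, a calpain subunit, was called lower than the control, by -1.05, and lost the call with median-of-ratios scaling (-0.81) or without control replicate 1 or 2 or 10 µM replicate 1 or 3.

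Of 18 signalling genes downstream of the receptor, none was called at 5 µM by limma in either direction, against 16.2% of all genes. At an unadjusted p under 0.05 the count was 3 higher and 4 lower, and 6 passed the adjusted p without reaching 2-fold, IRAK1 (-0.82) and PELI2 (-0.98) among them. MYD88, the adaptor, differed by 0.31 (adjusted p = 0.0918). IRAK2, a kinase of the receptor complex, was called lower at 10 µM than at 5 µM, by -1.17 (adjusted p = 0.0145). IRAK1, its partner kinase, and PELI2, a ubiquitin ligase, were called lower at 10 µM than in the control, by -1.01 and -1.23. With median-of-ratios scaling these 3 differences were -0.97, -0.76 and -0.99 and none was called. Each of these calls was also lost when single libraries were left out, IRAK2 without any of the 3 libraries at 5 µM, PELI2 without control replicate 2 or 10 µM replicate 1, and IRAK1 without any library but 10 µM replicate 2.

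Of 14 genes known to respond to IL-1 through NF-kB, 9 were called higher at 5 µM and none lower, where 14.1% of all genes were called higher and 2.17% lower. Their median log2 difference was 1.60, against 0.14 over all genes tested. CCL20, a chemokine for dendritic cells and lymphocytes, rose by 4.36 (SE 0.15, adjusted p = 8.64e-05). The neutrophil chemokines IL8 (CXCL8), CXCL1 and CXCL3 rose by 1.85, 2.06 and 1.68, and the NF-kB feedback genes TNFAIP3 and BIRC3 by 1.85 and 1.53. CXCL2, PTGS2 (the inducible cyclooxygenase) and CSF2 (the growth factor GM-CSF) made up the 9. Of these, CXCL2 rose by 1.19 and lost its call without 5 µM replicate 2 or 3 (adjusted p 0.0515 and 0.0622). PTGS2 rose by 1.16, and by 0.96 without 5 µM replicate 3. CSF2 had 0, 0 and 2 fragments in the control and 13, 32 and 21 at 5 µM, and lost its call without any library but control replicate 3. With limma's treat against a 2-fold change most of the 9 lost their call. These were BIRC3 (adjusted p = 0.132), CSF2 (0.129), CXCL1 (0.174), CXCL3 (0.167), TNFAIP3 (0.0653), CXCL2 and PTGS2. These genes also respond to other signals, and the list was drawn up with earlier results of these data known.

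At 10 µM the 4 chemokines of the CXC kind and CCL20 were called higher than the control, as 4.07% of all genes were. CCL20 (-1.28) and NFKBIA, the NF-kB inhibitor (-1.20), were called lower than at 5 µM, as 4.82% of all genes were. CCL20 differed from the control by 3.08 (adjusted p = 0.00366) and was called with each library left out in turn. IL8, CXCL1, CXCL2 and CXCL3 differed by 1.86, 2.24, 1.40 and 1.95, and all 4 lost their call without 10 µM replicate 3 (adjusted p 0.0532, 0.0586, 0.119 and 0.0745). CXCL2 lost it also without control replicate 2 or 3 or 10 µM replicate 1 or 2, and CXCL3 without any control library. The lower calls from 5 µM were lost for both genes without any of the 3 libraries at 5 µM, and for CCL20 also without 10 µM replicate 1 or 3.

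Within the receptor cluster on chromosome 2, counted as 11 genes from MAP4K4 to TMEM182, IL1R2, IL1R1 and SLC9A4 were called higher at 5 µM and none lower, where 14.1% of all genes were called higher. SLC9A4, a sodium-proton exchanger, rested on at most 5.7 estimated fragments in a library and lost its call with a pseudocount of 1000 (0.42) or with treat (adjusted p = 0.0556). MAP4K4, a kinase next to IL1R2, and IL1RL2, next to IL1R1, differed by 0.04 and -0.11, and neither was called. At 10 µM MFSD9, a transporter-like gene, was called lower than the control (-1.18, and -0.93 with no call under median-of-ratios scaling). That call was also lost without any library but 10 µM replicate 2. Within the ligand cluster, counted as 11 genes from CKAP2L to PSD4, IL1A, IL1B, IL36G and IL1F10 were called higher at 5 µM. The flanking genes were CKAP2L (0.68, adjusted p = 0.0751), a spindle protein gene, and PSD4 (-0.66, adjusted p = 0.00124), an exchange factor gene, neither past 2-fold. CKAP2L was called lower at 10 µM than at 5 µM (-1.31), and lost the call without 5 µM replicate 2 or 3.

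**Figure D5:**
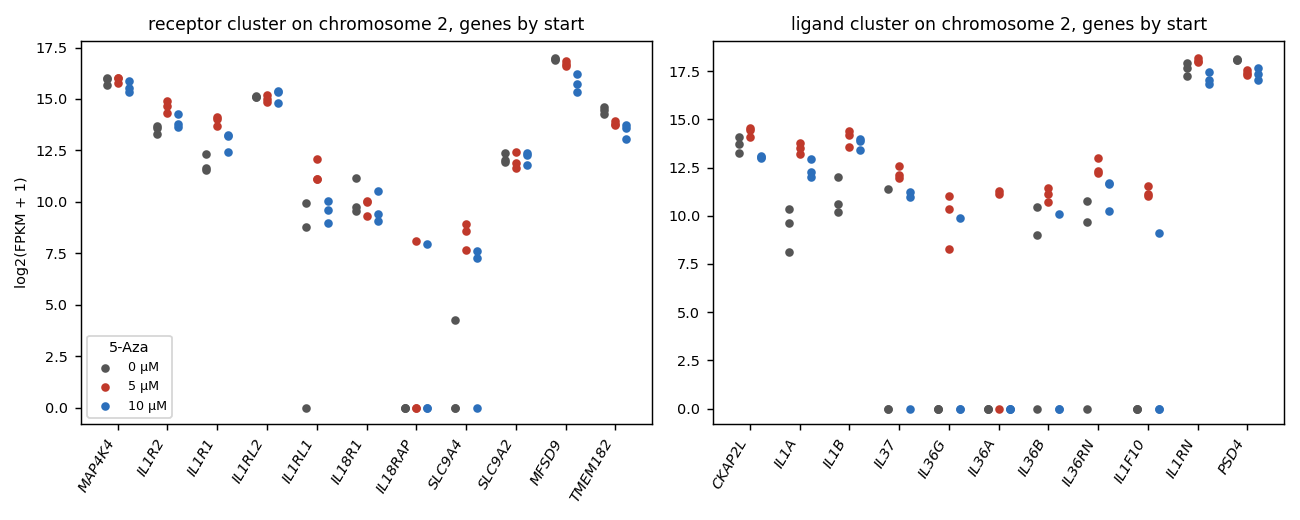
log2(FPKM + 1) of each gene in the 2 clusters on chromosome 2, in order of their start positions, with 1 point for each of 9 libraries (control grey, 5 µM red, 10 µM blue; points at 0 are genes listed at 0). IL1A, IL1B, IL1R1 and IL1R2 lie higher at 5 µM than in the control, while MAP4K4, IL1RL2 and SLC9A2 overlap.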

How the data were processed

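RNA-Seq of 9 HT-29 cultures was grouped by the 5-Aza concentration in the sample labels, which call the cultures biological replicates. The deposited values are FPKM that the authors obtained with Cufflinks from reads filtered by FASTX-Toolkit and aligned with TopHat (hg19). Raw counts were not used here. Values of repeated symbols were summed. Genes reaching an FPKM of 10 in either group were compared as log2(FPKM + 1), with 6 libraries per comparison, in limma 3.58.1 (R 4.3.3, eBayes with trend, no block). This limit filters little, since 1 fragment of IL1A in control replicate 1 was already 281 FPKM. Genes with 1 fragment in a single library, such as AIM2 at 5 µM vs. 0 µM, were therefore tested and counted in the shares of all genes. On this scale the difference of a gene listed at 0 in a library depends on the pseudocount. The script was tested on simulated data with changes planted only in better covered genes, so that test does not reach members with few fragments, such as IL1A and IL1B. Fragments were recovered from steps in the FPKM, or estimated from annotated length. The members and gene lists were chosen with earlier results of these data known. The rule for named genes took all members, list genes called in a comparison and the 5 genes most correlated with IL1R1, of which 3 are given. MAP4K4, PSD4, IL1RL2, CASP1 and MYD88, not called, were added after their values were seen. Alternatives were pseudocounts of 0.1 and 1000, other filters, no fold threshold, treat, 1 fit of all 9 samples, a replicate block, median-of-ratios scaling, the largest entry of repeated symbols, and leaving out each library. Positions are from GENCODE on GRCh37, and promoter windows from RefSeq on GRCh38.p14.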

Additional observations from a re-analysis of the deposited data

How the results depend on the processing

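The count of members called at 5 µM vs. 0 µM, 4, became 2 with limma's treat against a 2-fold change and 5 with a pseudocount of 1000 (IL1RL1 added), and ranged from 3 to 5 when single libraries were left out. At 10 µM vs. 5 µM the count of 0 became 1 with a pseudocount of 1000 and 1 with no fold threshold, and ranged from 0 to 3 without single libraries (3 without 10 µM replicate 2). At 10 µM vs. 0 µM the count of 2 became 0 with treat and 3 with all 9 samples in 1 fit (IL1R1 added), and ranged from 0 to 2 without single libraries (0 without 10 µM replicate 1 or 3). Replicate numbers did not pair the samples, since deviations of samples with the same number correlated by -0.0743 to 0.086. The replicate block gave 4, 0 and 1 calls in the 3 comparisons, the last losing IL1A (adjusted p = 0.0532). It also ended the calls of NLRP3 (0.0573) and FCGR1A (0.0755) at 5 µM, and of CCL20 (0.0595), CKAP2L (0.0648) and IRAK2 (0.0578) at 10 µM vs. 5 µM. At 10 µM vs. 0 µM it ended those of ITGAM (0.0761), CXCL2 (0.0636), KRT20 (0.0628) and IRAK1 (0.0565). Treat ended that of NLRP3 too (0.276). Of the single member values 472 kept their direction and side of the threshold, 14 lost and 8 gained the call, and 15 changed sign. All that changed sign belonged to uncalled members. Without single libraries IL18 ranged from -0.06 to 0.13 and IL18R1 from -0.69 to 0.11 at 5 µM vs. 0 µM. At 10 µM vs. 5 µM, IL33 ranged from -1.39 to 0.15 and IL18R1 from -0.52 to 0.20, and IL18R1 was at 0.11 with median-of-ratios scaling. At 10 µM vs. 0 µM, IL33 ranged from -0.72 to 0.82 and IL18R1 from -0.92 to 0.01, and IL33 was at 0.05 with a pseudocount of 1000 and at 0.18 with median-of-ratios scaling. The cause was not tested. IL1A and IL1B in the control, IL1RL1 in the control and at 10 µM, and IL18R1 in every group rested on few fragments. IL33 had an estimated 4.5 to 11 fragments in the control libraries and 2.25 to 22.5 at 10 µM.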
